A study of Homo sapiens with 18 samples.

Results

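The genes described here are 31 markers and granule genes of neuroendocrine cells: the proteins, hormones and enzymes of the dense-core secretory granule, and the membrane proteins, transcription factors, RNA-binding proteins and cytoplasmic enzymes used to recognise such cells. Each gene was represented by the probe set that maps to it alone and has the highest mean over all arrays. 28 of the 31 genes had such a probe set, out of 19775 genes on the array, and PCSK1, PCSK2 and NEUROD1 were not analysed here. 19 of the 28 passed the filter, more than 4 on the log2 scale on no fewer than 3 arrays, and were tested among 12159 genes. A log2 value of 4 was taken as the level below which a probe set gives no more than background.

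Total RNA of 2 human prostate cancer cell lines was hybridised to 18 Affymetrix U133 Plus 2.0 arrays, 3 in each of 6 groups. The tested groups were 22Rv1 cells and LNCaP cells transduced with a lentiviral construct of the full-length cDNA of ONECUT2, a homeobox transcription factor, and 22Rv1 cells with a lentiviral shRNA against ONECUT2. They were set against 22Rv1 and LNCaP controls, whose treatment label reads vehicle, and against 22Rv1 cells with a scramble shRNA. 22Rv1 was derived from a prostate carcinoma xenograft that relapsed after castration and LNCaP from a lymph node metastasis. The labels describe transduced cells as puromycin-selected stable lines and do not say that the controls carried an empty vector. Each transduced group is taken here as 1 such line. Whether each array had a culture of its own is not given, so a p-value here speaks only for array-to-array spread, which may be technical.

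Neuroendocrine cells pack peptide hormone precursors with chromogranins and secretogranins into dense-core granules. There, prohormone convertases, carboxypeptidase E and an amidating enzyme trim the precursors, and SNARE proteins such as SNAP25 fuse the granule with the plasma membrane. In non-neuronal cells the repressor REST keeps many of these genes silent, and the splicing factor SRRM4 can turn REST into a truncated form that does not repress them. Some prostate carcinomas gain these markers as they lose the androgen-driven luminal programme.

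Quality and labels bear on the values below. Between 38.3% and 40.0% of probe sets read over 4 on every array. Arrays correlated with the others of their group at 0.996 or more on average, except for LNCaP overexpression, where replicate 1 reached 0.978. The arrays labelled ONECUT2 shRNA had more ONECUT2 signal than those labelled scramble: 8.46, 9.00 and 9.12, against 6.63, 6.71 and 7.08, a log2 difference of 2.05 ± 0.16 (SE, adjusted p = 7.32e-08). The shRNA groups are therefore called by their labels and no direction of ONECUT2 is read from them. Whether the labels of these groups are exchanged is not known, and every difference between them carries that doubt. ONECUT2 rose with the construct by 0.54 ± 0.16 in 22Rv1 (adjusted p = 0.00702) and by 0.66 ± 0.16 in LNCaP (adjusted p = 0.00153). A further ONECUT2 probe set read 5.23, 7.17 and 7.43 on the LNCaP overexpression arrays, against 2.99, 2.74 and 3.04 on the LNCaP controls. In 22Rv1 that probe set read 4.78, 4.14 and 4.21 with overexpression, against 3.05, 3.44 and 3.25 in control. Another averaged 8.36 with overexpression and 7.20 in control in 22Rv1. A different probe set went the other way in 22Rv1, with 4.70, 4.35 and 4.32 on the overexpression arrays, against 5.04, 5.48 and 5.75 on the controls. The last, under 4 on every array, averaged 2.60 and 2.68 there. Of the luminal markers, 6 to 8 of 8 measured read over 4 on all arrays of a group, and all measured basal and leukocyte markers read under 4 on every array.

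Promoter sequences were matched by symbol for 21 of the 28 measured genes, from RefSeq on build GRCh38.p14, and the 250 bases before the start are shown for 5 of them. CHGA, VGF and SST are shown because they share the palindromic cAMP response element TGACGTCA, and ENO2 and PCSK1N because they rose with ONECUT2 overexpression in both lines. RET was also called higher in both lines, and its sequence is not shown. Capitals mark the cAMP response element, the ONECUT core ATTGAT and the right-hand part of the REST element, searched on both strands. The match to that last motif is the run of 10 capitals that ends the VGF line.
CHGA (chr14:92922900-92923149, plus strand): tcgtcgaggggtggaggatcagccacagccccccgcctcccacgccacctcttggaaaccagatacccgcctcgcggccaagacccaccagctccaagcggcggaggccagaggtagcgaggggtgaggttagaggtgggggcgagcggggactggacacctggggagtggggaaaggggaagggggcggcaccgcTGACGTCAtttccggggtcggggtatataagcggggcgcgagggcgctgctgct
VGF (chr7:101165570-101165819, minus strand): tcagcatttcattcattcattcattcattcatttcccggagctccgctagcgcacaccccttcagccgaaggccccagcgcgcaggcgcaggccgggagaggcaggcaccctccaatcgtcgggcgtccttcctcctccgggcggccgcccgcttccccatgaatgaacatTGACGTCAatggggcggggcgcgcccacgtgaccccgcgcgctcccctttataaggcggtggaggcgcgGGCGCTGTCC
SST (chr3:187670395-187670644, minus strand): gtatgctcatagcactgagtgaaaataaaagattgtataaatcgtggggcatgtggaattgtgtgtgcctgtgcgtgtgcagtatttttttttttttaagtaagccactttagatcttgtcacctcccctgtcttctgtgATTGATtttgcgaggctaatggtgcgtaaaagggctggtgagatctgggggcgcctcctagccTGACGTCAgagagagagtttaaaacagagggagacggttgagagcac
ENO2 (chr12:6914330-6914579, plus strand): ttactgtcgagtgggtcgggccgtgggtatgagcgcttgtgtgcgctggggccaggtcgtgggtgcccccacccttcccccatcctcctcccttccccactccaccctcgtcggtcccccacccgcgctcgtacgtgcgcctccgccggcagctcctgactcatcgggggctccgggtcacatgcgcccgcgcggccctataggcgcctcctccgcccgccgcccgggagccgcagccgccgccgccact
PCSK1N (chrX:48835611-48835860, minus strand): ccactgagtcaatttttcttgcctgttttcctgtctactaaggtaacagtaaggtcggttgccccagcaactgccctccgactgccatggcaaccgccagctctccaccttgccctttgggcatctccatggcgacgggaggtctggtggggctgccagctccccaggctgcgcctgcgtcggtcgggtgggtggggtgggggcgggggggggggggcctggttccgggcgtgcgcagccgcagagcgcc
The cAMP response element lay 54 to 47 bases before the start in CHGA, 79 to 72 in VGF and 47 to 40 in SST. It was found in 3 of the 21 genes, and in 1.65% of 35116 windows of the same length. The ONECUT core was found in SST alone of the 21, and in 5.58% of all windows. The part of the REST element was found in VGF alone, in the last 10 bases before the start and on the other strand, and in 0.199% of all windows. The windows of ENO2 and PCSK1N held none of the 3 motifs in this window. A match is a description of letters and not a bound site.

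Among the control arrays, LNCaP read lower than 22Rv1 for most of the granule and neuronal genes. 15 of the 19 tested genes were lower in LNCaP control than in 22Rv1 control and 0 were higher, where 33.5% of all tested genes were lower, 30.2% higher and 63.6% called either way. The median log2 difference was -1.79 over the 19 genes and -0.04 over all genes. 9 of the 19 passed the filter through 22Rv1 arrays alone, among them NKX2-1 and SEZ6 through overexpression arrays only, so the filter itself favoured genes that are low in LNCaP and nothing is read from the count. The beta-actin 3' excess, the amount by which 3' control probes read over 5' ones, was 2.94 ± 0.25 in LNCaP control and 4.11 ± 0.41 in 22Rv1 control (SD, n = 3 each; exact permutation p = 0.1, two-sided, the smallest that 3 against 3 arrays allow). For GAPDH it was -0.68 ± 0.07 in LNCaP control and -0.70 ± 0.09 in 22Rv1 control (exact permutation p = 0.9). Of 8 luminal markers 6 were higher in LNCaP control and 0 lower, with summed signal at 14.6 (log2), against 13.2 in 22Rv1 control. Of the 6 stromal markers LUM and COL3A1 were lower, with summed signal at 7.70 to 8.32 in LNCaP control and 8.11 to 8.27 in 22Rv1 control. The part of RNA quality and of these markers in the result was not tested.

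CHGB, a chromogranin that forms the granule core, read 2.56, 2.05 and 2.55 on the LNCaP controls, against 7.56, 7.92 and 7.68 on the 22Rv1 controls, at least 13.1-fold lower (adjusted p = 2.49e-11). SRRM4 read 1.83, 1.92 and 1.87, against 7.97, 7.97 and 8.01, at least 15.8-fold lower (adjusted p = 1.42e-15), although a second SRRM4 probe set differed by only -2.12 ± 0.13. SNAP25 read 2.15, 2.27 and 2.70, against 8.06, 8.12 and 8.41, at least 18.3-fold lower (adjusted p = 5.58e-14), although a second SNAP25 probe set differed by only -1.31 ± 0.12. On the probe sets used, all LNCaP controls thus lay under the background level for these 3 genes and all 22Rv1 controls far over it. ENO2, the neuron-specific enolase, read 3.45, 3.14 and 2.93, against 8.89, 9.19 and 9.11, at least 33.5-fold lower (adjusted p = 7.31e-12). The secretogranin SCG3 was at least 8.75-fold lower, the neuronal splicing factor CELF3 at least 10.3-fold, MYCN at least 5.61-fold, POU3F2 at least 2.75-fold and CHGA at least 2.04-fold. CHGB, SRRM4, SNAP25, SCG3, CELF3 and MYCN passed the filter through 22Rv1 arrays alone. Their levels are described, and nothing is read from their calls.

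VGF, a granule protein that is cut into several peptides, averaged 4.08 ± 0.09 in LNCaP control and 7.65 ± 0.48 in 22Rv1 control (SD, n = 3 each), 11.9-fold lower in LNCaP. PCSK1N, an inhibitor of a prohormone convertase, averaged 5.16 ± 0.06 in LNCaP control and 6.96 ± 0.24 in 22Rv1 control. Of the processing enzymes, CPE, the carboxypeptidase that trims precursor ends, differed by -0.67 ± 0.14 on the log2 scale (SE, adjusted p = 0.000641). PAM, the amidating enzyme, had an adjusted p of 0.0956, RET 0.647, NKX2-1 0.365 and UCHL1 0.120. The other calls in this comparison, SCG2, SCG5 and SEZ6, averaged 3.90, 2.90 and 2.01 in LNCaP control, against 5.53, 4.15 and 3.59 in 22Rv1 control. SCG5 and SEZ6 also passed the filter through 22Rv1 arrays alone, and nothing is read from their calls.

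**Figure D1:**
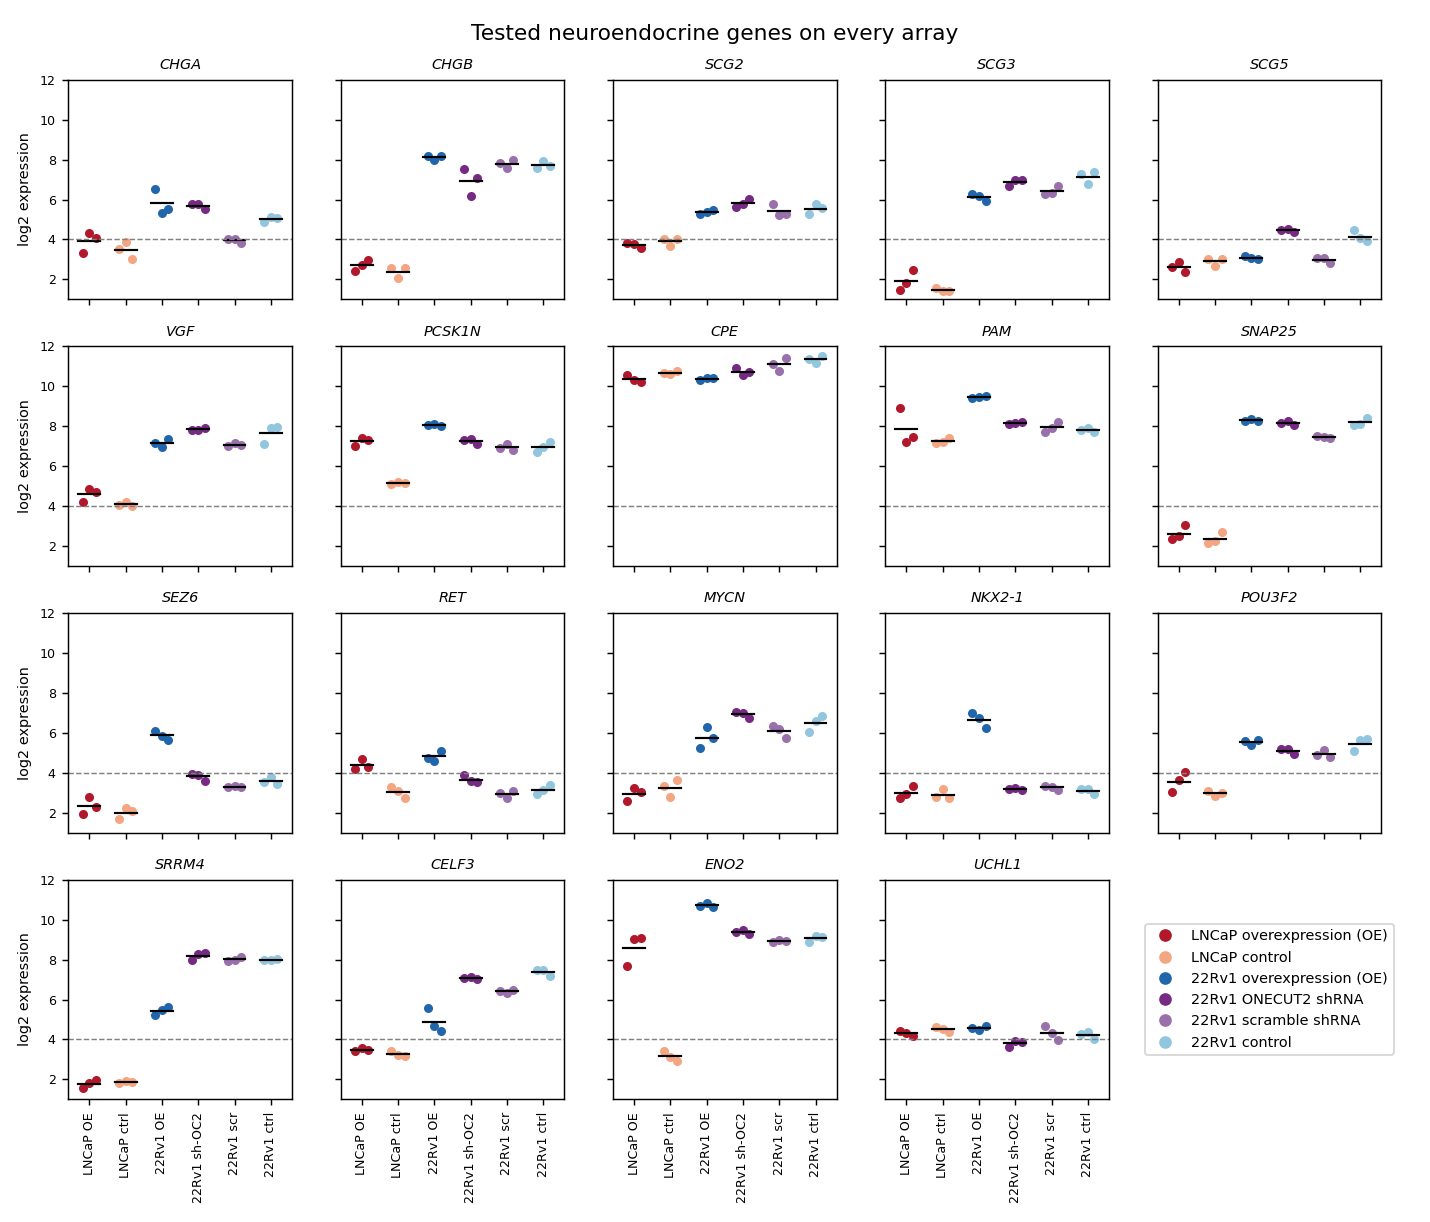
Log2 expression (vertical axis) of the 19 tested genes on all 18 arrays, with points for arrays, bars for group means of 3 arrays and a dashed line at 4 (sh-OC2, ONECUT2 shRNA, scr, scramble shRNA). LNCaP arrays lie under 4 for CHGB, SCG3, SNAP25, SRRM4 and MYCN, ENO2 is over 4 in LNCaP only on the overexpression arrays, and NKX2-1 and SEZ6 are over 4 only on the 22Rv1 overexpression arrays.

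ONECUT2 overexpression in 22Rv1 changed the genes in both directions. NKX2-1, SEZ6, RET, ENO2, PAM, PCSK1N and CHGA rose, and SRRM4, CELF3, SCG5, SCG3, CPE, MYCN and VGF fell. These are 14 of 19 tested genes, 7 higher and 7 lower, where 60.8% of all tested genes were called, 36.5% higher and 24.3% lower. NKX2-1, SEZ6 and RET passed the filter through overexpression arrays alone and so had to be higher. Nothing is read from their calls, or from the counts and medians that include them. The median log2 change was 0.11 over the 19 genes and 0.10 over all genes, and the median size of change was 1.00, against 0.50 over all genes. In RNA of whole cultures, fewer cells of a type and less RNA per cell cannot be told apart.

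The transcription factor with the largest rise among the 19 was NKX2-1, which specifies lung and thyroid and marks many small-cell carcinomas. It read 6.97, 6.73 and 6.22 on the 22Rv1 overexpression arrays, against 3.17, 3.20 and 2.95 on the controls, at least 6.25-fold higher (adjusted p = 1.75e-10). Its 6 LNCaP arrays and 6 shRNA arrays all read under 4, so the gene was over background in 1 group of the 6. A second NKX2-1 probe set read under 4 on every array and averaged 2.77 with overexpression and 2.85 in control in 22Rv1. MYCN, an oncogenic transcription factor amplified in some neuroendocrine tumours, read 5.23, 6.29 and 5.76, against 6.03, 6.60 and 6.84. It fell by 0.73 ± 0.28 (SE, adjusted p = 0.0339) with overlapping arrays, and the call was lost without overexpression replicate 1 (-0.46, adjusted p = 0.187) or 3, or without control replicate 2 or 3. POU3F2, a neural POU factor, averaged 5.55 ± 0.13 in overexpressing and 5.46 ± 0.34 in control cells (SD, n = 3 each; adjusted p = 0.745).

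Among membrane proteins, SEZ6, a transmembrane protein of neurons that is also a surface target in small-cell carcinoma, read 6.12, 5.86 and 5.66 with overexpression, against 3.55, 3.81 and 3.42 in control. It was at least 3.67-fold higher (adjusted p = 4.43e-08). RET, the receptor tyrosine kinase of the GDNF family of ligands, read 4.75, 4.61 and 5.09, against 2.94, 3.13 and 3.39, at least 1.76-fold higher (adjusted p = 7.68e-07). Both genes were under 4 on every 22Rv1 control array. Their other probe sets read under 4 on all arrays. Those of RET averaged 2.94 and 2.92 with overexpression, against 2.88 and 2.89 in control. That of SEZ6 averaged 3.70 with overexpression, against 3.36 in control. SNAP25, the SNARE of regulated secretion, read 8.26, 8.36 and 8.29, against 8.06, 8.12 and 8.41 (0.11 ± 0.17, adjusted p = 0.616). A second SNAP25 probe set over the filter gave a fall by 0.57 ± 0.12 (adjusted p = 0.000613 in a fit of all probe sets), so the probe sets of this gene disagree.

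The granule cargo genes moved apart. PCSK1N read 8.05, 8.10 and 8.01 on the overexpression arrays, against 6.71, 6.97 and 7.19, and rose by 1.10 ± 0.14 (SE, adjusted p = 3.17e-06), or 2.14-fold. CHGA, the chromogranin measured in blood as a neuroendocrine marker, read 6.53, 5.35 and 5.55, against 4.88, 5.14 and 5.05. Its arrays did not overlap, but overexpression replicate 1 lay well over the others: the rise of 0.78 ± 0.29 (adjusted p = 0.0260) became 0.42 (adjusted p = 0.179) without it. The call was also lost without control replicate 1 or 3 and after a further quantile normalization. CHGB averaged 8.11 ± 0.10 with overexpression and 7.72 ± 0.18 in control (SD, n = 3 each; adjusted p = 0.208).

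SCG3, which binds CHGA and carries it into granules, read 6.30, 6.18 and 5.90, against 7.25, 6.78 and 7.35, and fell by 1.00 ± 0.22 (SE, adjusted p = 0.000772). SCG5, a chaperone of a prohormone convertase, read 3.19, 3.05 and 3.01, against 4.46, 4.06 and 3.92, at least 1.11-fold lower (adjusted p = 1.15e-05). Its control arrays stood just at the background level. SCG5 passed the filter with no overexpression array over 4, through 22Rv1 control and ONECUT2 shRNA arrays, so nothing is read from its call. VGF read 7.14, 6.96 and 7.37, against 7.10, 7.91 and 7.95. It fell by 0.50 ± 0.20 (adjusted p = 0.0424) with overlapping arrays, and the call was lost without overexpression replicate 1 or 2, without control replicate 2 or 3 and with no filter. SCG2, the precursor of secretoneurin, averaged 5.37 ± 0.10 with overexpression and 5.53 ± 0.24 in control (SD, n = 3 each; adjusted p = 0.420).

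The trimming enzymes went opposite ways. PAM read 9.43, 9.49 and 9.49, against 7.83, 7.93 and 7.70, and rose 3.14-fold (1.65 ± 0.29 on the log2 scale, adjusted p = 0.000124). CPE read 10.29, 10.42 and 10.41, against 11.35, 11.19 and 11.50, and fell by 0.97 ± 0.14 (adjusted p = 2.01e-05). The arrays of both genes were apart by group, and their other probe sets over the filter gave changes of the same sign. Of 6 other tested processing enzymes 2 rose and 0 fell, where 36.5% of all tested genes rose and 24.3% fell, and nothing is read from this count. One was QPCT, which forms the pyroglutamate end of several hormones and read 7.25, 7.42 and 7.59 with overexpression, against 3.42, 3.68 and 4.11 in control, where only 1 array exceeded 4.

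Both tested RNA-binding proteins fell. SRRM4 read 5.23, 5.45 and 5.62, against 7.97, 7.97 and 8.01, a fall by 2.55 ± 0.13 on the log2 scale (adjusted p = 1.92e-10). CELF3 read 5.56, 4.69 and 4.44, against 7.48, 7.46 and 7.17, a fall by 2.48 ± 0.20 (adjusted p = 2.79e-08). Each overexpression array of both genes still read over 4 on the probe sets used. A second SRRM4 probe set fell by 1.03 ± 0.13 (adjusted p = 5.50e-06 in a fit of all probe sets), to a mean of 3.18. REST itself averaged 10.4 with overexpression and 9.91 in control, a rise of 0.51 ± 0.17 (adjusted p = 0.0146). Of 13 tested genes of the REST complex, 6 rose and 4 fell, beside the 36.5% and 24.3% of all genes given above, and the corepressor RCOR1 rose by 1.70 ± 0.08 (adjusted p = 5.30e-11).

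Of the cytoplasmic enzymes, ENO2 read 10.70, 10.84 and 10.64, against 8.89, 9.19 and 9.11, and rose 3.17-fold (1.66 ± 0.26, adjusted p = 3.90e-05). UCHL1, a ubiquitin hydrolase abundant in neurons, averaged 4.59 ± 0.09 with overexpression and 4.23 ± 0.17 in control (SD, n = 3 each). Its adjusted p of 0.0516 missed the threshold although the arrays did not overlap.

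The RNA quality controls read apart in this comparison, beta-actin by far more than GAPDH. The beta-actin 3' excess was 8.06 ± 0.70 log2 units on the 22Rv1 overexpression arrays and 4.11 ± 0.41 on the controls (SD, n = 3 each; exact permutation p = 0.1). The same measure for GAPDH was -0.43 ± 0.13 with overexpression and -0.70 ± 0.09 in control. The part of RNA quality in the 14 calls was not tested. Luminal markers moved as well: 5 of 8 tested fell and 1 rose (KRT18), where 24.3% of all tested genes fell and 36.5% rose. The protease KLK2 fell by 3.53 ± 0.52 on the log2 scale. Basal, leukocyte and endothelial markers were under 4 on all arrays of both groups, and among 6 stromal markers COL1A1 rose while LUM and COL3A1 fell. Summed luminal signal spanned 12.8 to 13.0 (log2) with overexpression and 13.2 in control, and summed stromal signal 9.78 to 9.87 with overexpression and 8.11 to 8.27 in control. Their part in the result was not tested.

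In LNCaP, ONECUT2 overexpression raised ENO2, PCSK1N, RET, POU3F2 and VGF. These are 5 of 19 tested genes, all 5 higher, where 62.2% of all tested genes were called, 34.1% higher and 28% lower. The share of the genes called thus lay under that of all genes, and 9 of the 19 read under 4 on all 6 LNCaP arrays. The median log2 change was 0.31 over the 19 genes and 0.09 over all genes.

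ENO2 had the largest change of the 19. It read 7.66, 9.02 and 9.06 on the overexpression arrays, against 3.45, 3.14 and 2.93 on the LNCaP controls, at least 23.9-fold higher (5.41 ± 0.26 as fitted on the log2 scale, SE, adjusted p = 3.21e-11). Every control array read under the background level and every overexpression array far over it, with replicate 1 the lowest. PCSK1N read 7.02, 7.39 and 7.31, against 5.09, 5.22 and 5.17, 4.21-fold higher (2.07 ± 0.14, adjusted p = 1.50e-09). RET read 4.20, 4.70 and 4.27, against 3.30, 3.11 and 2.75, at least 1.31-fold higher (adjusted p = 8.51e-06). For these 3 genes the groups did not overlap. The calls of ENO2 and PCSK1N held under all alternatives run. RET passed the filter through overexpression arrays alone and so had to be higher in 1 of the lines, and nothing is read from its call.

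The calls of VGF and POU3F2 were weaker. VGF read 4.23, 4.85 and 4.72, against 4.04, 4.19 and 4.02, a rise of 0.52 ± 0.20 (adjusted p = 0.0345). POU3F2 read 3.04, 3.62 and 4.03, against 3.11, 2.84 and 2.98, so that only 1 of its arrays exceeded 4 and the groups overlapped (0.59 ± 0.21, adjusted p = 0.0226). Both calls were lost with array weights and in a fit of these 6 arrays alone. Both were also lost without overexpression replicate 2 or 3, VGF without control replicate 1 or 3 and POU3F2 without control replicate 2.

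The other granule genes gave no call in LNCaP. CHGA read 3.30, 4.31 and 4.10 with overexpression, against 3.52, 3.86 and 3.04 (0.43 ± 0.29, adjusted p = 0.203). PAM read 8.91, 7.21 and 7.47, against 7.14, 7.21 and 7.39 (0.62 ± 0.29, adjusted p = 0.0747), and here replicate 1 alone stood apart. CPE read 10.58, 10.31 and 10.22, against 10.67, 10.63 and 10.74 (-0.31 ± 0.14, adjusted p = 0.0711), all below control. A second CPE probe set gave a fall by 0.65 ± 0.13 (adjusted p = 0.000472 in a fit of all probe sets). UCHL1 averaged 4.30 ± 0.12 with overexpression and 4.51 ± 0.12 in control (SD, n = 3 each; adjusted p = 0.250). CHGB, SCG3, SCG5, SNAP25, SEZ6, MYCN, NKX2-1, SRRM4 and CELF3 stayed under 4 on all 6 arrays.

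Replicate 1 of LNCaP overexpression set the number of calls. Without it 10 of the 19 genes were called, 9 higher and 1 lower, with CHGA, SCG3, SEZ6 and SNAP25 added to the rises and CPE to the falls. SCG3, SEZ6 and SNAP25 remain under 4 there. Replicate 1 was also the array with the least change in the further ONECUT2 probe set and in KLK2, which read 6.30, 3.18 and 3.41, against 11.4, 11.2 and 11.1 in control. Other ONECUT2 probe sets did not share this: the one used for the gene read 7.23, 7.31 and 7.28 on the overexpression arrays. Another read 6.53, 6.10 and 6.37, highest in replicate 1. The beta-actin 3' excess was 2.85 ± 0.56 with overexpression and 2.94 ± 0.25 in control (SD, n = 3 each; exact permutation p = 0.8). 5 of 8 luminal markers fell and 1 rose in LNCaP, where 28% of all tested genes fell and 34.1% rose. COL1A1 rose by 3.64 ± 0.28 among the stromal markers while LUM and COL3A1 fell with all arrays under 4. Summed luminal signal spanned 13.2 to 13.3 (log2) with overexpression and 14.6 in control, and summed stromal signal 10.63 to 12.01 with overexpression and 7.70 to 8.32 in control. Their part in the result was not tested.

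**Figure D2:**
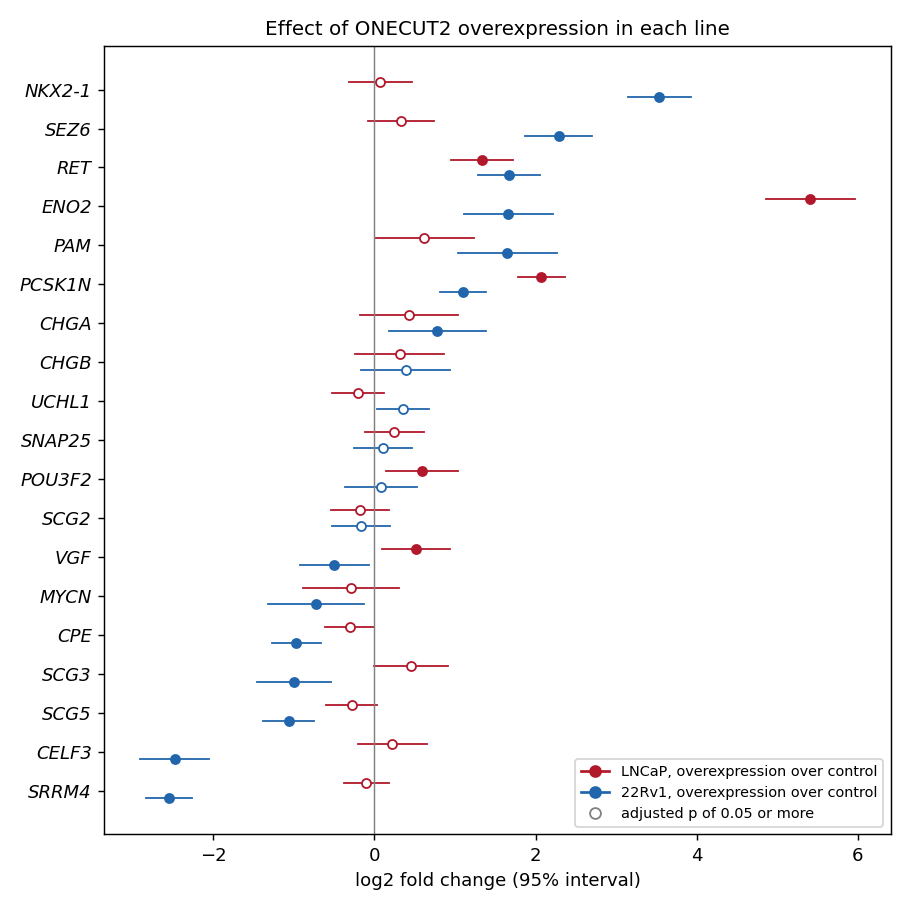
Log2 fold change of overexpression over control for the 19 tested genes (horizontal axis, 95% interval of the model), LNCaP above 22Rv1 for each gene, with filled points for calls and open points for adjusted p of 0.05 or more. ENO2, PCSK1N and RET rose in both lines, NKX2-1 (3.54) and SEZ6 (2.29) rose and SRRM4 (-2.55) and CELF3 (-2.48) fell in 22Rv1. RET, NKX2-1 and SEZ6 passed the filter through overexpression arrays alone, and nothing is read from their calls.

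The overexpression effect differed between the lines for 11 of 19 genes by the test of the difference itself (8 higher and 3 lower in LNCaP, where 44.7% of all tested genes differed, 18.1% higher and 26.6% lower). PCSK1N rose more in LNCaP, by 0.98 ± 0.19 on the log2 scale (SE, adjusted p = 0.000647). For ENO2 the fitted difference was 3.74 ± 0.37 (adjusted p = 8.16e-07), a size that rests partly on background because the LNCaP controls read under 4. Set against 4 instead, the LNCaP rise of ENO2 was at least 4.58, against 1.66 in 22Rv1. VGF was called higher in LNCaP and lower in 22Rv1, a difference of 1.01 ± 0.28 (adjusted p = 0.00859). Its call within each line was lost under several alternatives. The CPE effect was 0.66 ± 0.20 higher in LNCaP (adjusted p = 0.0139) and that of UCHL1 was -0.57 ± 0.22 (adjusted p = 0.0423). For NKX2-1 (-3.46), SEZ6 (-1.95), CELF3 (2.70), SRRM4 (2.45), SCG3 (1.46) and SCG5 (0.78) all LNCaP arrays read under 4, so the difference sets a change in 22Rv1 against a line with no level over background. RET gave no call for a difference (-0.33, 95% interval -0.87 to 0.22, adjusted p = 0.318). PAM missed the threshold (-1.03 ± 0.41, adjusted p = 0.0513) and passed it without LNCaP overexpression replicate 1 (-1.56). The median difference was 0.44 over the 19 genes and -0.10 over all genes. NKX2-1, SEZ6, CELF3, SRRM4, SCG3 and SCG5 passed the filter through 22Rv1 arrays alone, NKX2-1 and SEZ6 through overexpression arrays only. Nothing is read from their calls, or from the count and median that include them.

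Between the arrays labelled ONECUT2 shRNA and those labelled scramble, CHGA, SCG5, MYCN, VGF, RET, SNAP25 and CELF3 were higher and CHGB and UCHL1 lower. These are 9 of 19 genes, 7 higher and 2 lower, where 29.5% of all tested genes were called, 13.4% higher and 16.1% lower. The median log2 difference was 0.44 over the 19 genes and -0.03 over all genes. Of 8 luminal markers 1 was higher and 3 lower, with summed signal at 13.1 to 13.2 (log2) on ONECUT2 shRNA arrays and 13.4 to 13.5 on scramble arrays. Of 6 stromal markers LUM was lower by a fitted 10.1-fold, with summed signal at 7.94 to 8.44 on ONECUT2 shRNA arrays and 8.66 to 8.96 on scramble arrays. Their part in the result was not tested.

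CHGA read 5.78, 5.80 and 5.52 on the ONECUT2 shRNA arrays, against 4.05, 4.04 and 3.84 on the scramble arrays, and was 3.31-fold higher (1.73 ± 0.29, adjusted p = 0.000256). SCG5 read 4.48, 4.54 and 4.38, against 3.05, 3.07 and 2.84, at least 1.38-fold higher (adjusted p = 1.73e-06). SCG5 was over 4 on 5 arrays, 3 of them ONECUT2 shRNA and 2 of them 22Rv1 control, and would not have been tested without the ONECUT2 shRNA arrays, so nothing is read from its call. VGF read 7.82, 7.82 and 7.93, against 7.03, 7.14 and 7.05 (0.78 ± 0.20, adjusted p = 0.00740). In all 3 genes the groups were apart. CHGB went the other way and read 7.54, 6.18 and 7.07, against 7.81, 7.57 and 7.96 (-0.85 ± 0.26, adjusted p = 0.0216). Its ONECUT2 shRNA arrays were spread widely, and the difference was -0.47 (adjusted p = 0.125) without replicate 2 of that group. The call of CHGB was also lost without scramble replicate 1 or 3.

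SNAP25 read 8.15, 8.28 and 8.04, against 7.49, 7.48 and 7.41 (0.70 ± 0.17, adjusted p = 0.00580), while its second probe set gave 0.18 ± 0.12 (adjusted p = 0.306 in a fit of all probe sets). CELF3 read 7.06, 7.11 and 7.01, against 6.42, 6.35 and 6.48 (0.64 ± 0.20, adjusted p = 0.0241). MYCN read 7.04, 6.98 and 6.75, against 6.34, 6.17 and 5.73 (0.84 ± 0.28, adjusted p = 0.0323). The groups were apart in each of these, though the CELF3 call was lost without any of the ONECUT2 shRNA replicates 1, 2 and 3 or scramble replicates 1 and 2, and the MYCN call without ONECUT2 shRNA replicate 1 or 2 or scramble replicate 2 or 3. RET read 3.87, 3.58 and 3.55, against 3.00, 2.72 and 3.07, all under 4. UCHL1 read 3.64, 3.92 and 3.85, against 4.66, 4.32 and 3.98, at least 1.25-fold lower (adjusted p = 0.0179). Its call was lost without ONECUT2 shRNA replicate 1 or scramble replicate 1, and as a mean over its probe sets.

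**Figure D3:**
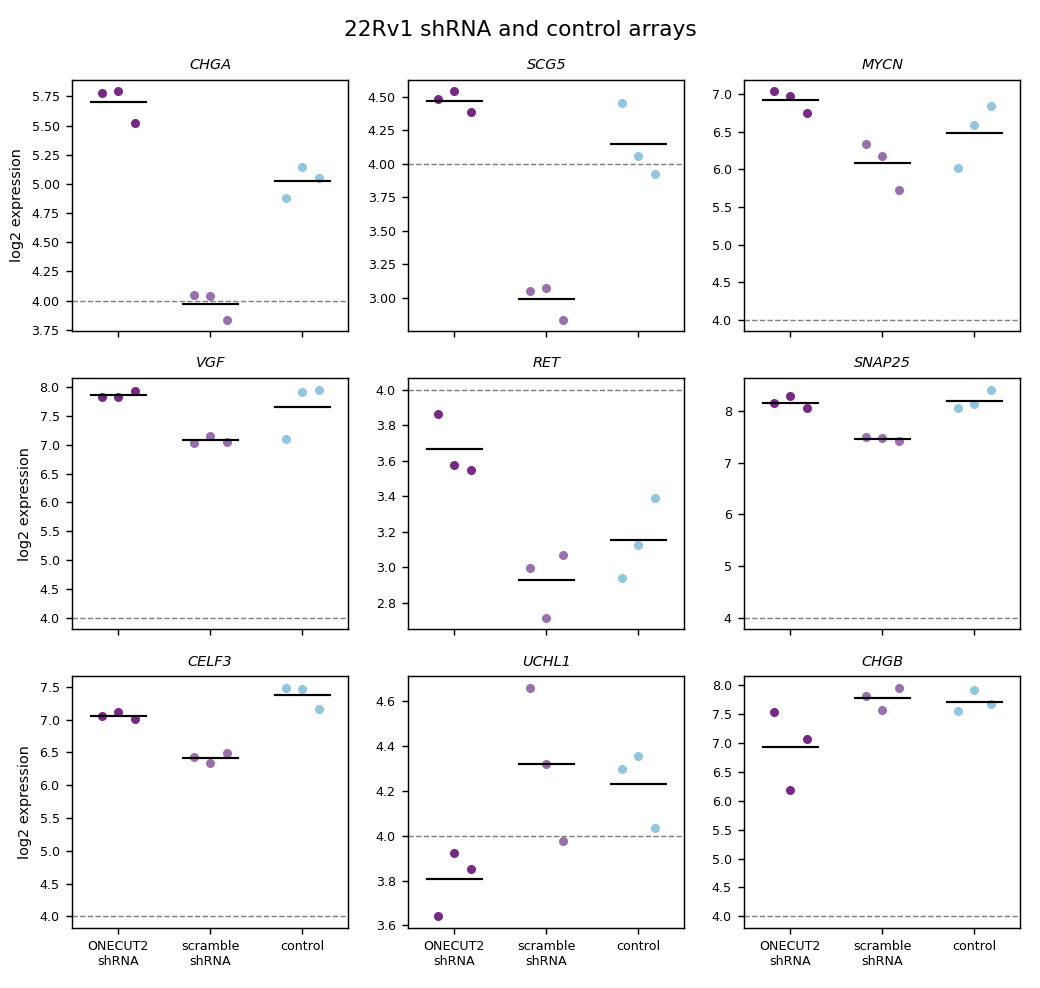
Log2 expression (vertical axes, each with its own range) of the 9 genes called between the ONECUT2 shRNA and scramble shRNA arrays of 22Rv1, with the 22Rv1 controls beside them. Points are arrays, bars are means of 3 arrays and the dashed line is at 4. CHGA averages 5.70, 3.97 and 5.03 in ONECUT2 shRNA, scramble and control, and RET stays under 4 throughout.

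The scramble arrays themselves differed from the 22Rv1 controls. ONECUT2 differed by -1.41 ± 0.16 between scramble and control (adjusted p = 8.84e-06) and by 0.65 ± 0.16 between ONECUT2 shRNA and control (adjusted p = 0.0265). SCG5, CHGA, CELF3, SNAP25, SCG3 and VGF were lower with scramble, 6 of 19 genes with 0 higher, where 9.4% of all tested genes were lower, 12.5% higher and 21.9% called either way. CHGA fell by 1.05 ± 0.29 (adjusted p = 0.0140), CELF3 by 0.95 ± 0.20 (adjusted p = 0.00289), SNAP25 by 0.74 ± 0.17 (adjusted p = 0.00565) and SCG3 by 0.69 ± 0.22 (adjusted p = 0.0300). SCG5 was at least 1.11-fold lower (adjusted p = 3.89e-05), with control arrays just at the background level. It passed the filter through control and ONECUT2 shRNA arrays alone, and nothing is read from its call. VGF fell by 0.58 ± 0.20 at the threshold (adjusted p = 0.0499) with overlapping arrays. That call was lost without control replicate 2 or 3 or any 1 scramble array, and the CHGA call was lost without control replicate 2 (-0.99, adjusted p = 0.0507). The SCG3 call was lost without control replicate 1 or 3 or scramble replicate 1 or 2.

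Set against the 22Rv1 controls, the ONECUT2 shRNA arrays gave 1 call of 19, a fall of CPE by 0.61 ± 0.14 (adjusted p = 0.0229), where 4.46% of all tested genes were called, 2.35% higher and 2.11% lower. CPE read 10.93, 10.57 and 10.71, against 11.35, 11.19 and 11.50, with the groups apart. The call was lost without control replicate 1 or 3 or ONECUT2 shRNA replicate 2 or 3. CHGA differed from control by 0.67 ± 0.29 (adjusted p = 0.222) and CHGB by -0.78 ± 0.26 (adjusted p = 0.103). These comparisons share arrays with the one before, and the values are set side by side only. The beta-actin 3' excess was 4.27 ± 0.04 with ONECUT2 shRNA and 3.88 ± 0.28 with scramble (SD, n = 3 each; exact permutation p = 0.1). For GAPDH it was -0.62 ± 0.08 with ONECUT2 shRNA and -0.75 ± 0.12 with scramble (exact permutation p = 0.3).

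9 of the measured genes were not tested. Synaptophysin (SYP), the membrane protein of small vesicles, NCAM1, the adhesion molecule CD56, and the hormones gastrin-releasing peptide (GRP) and somatostatin (SST) never read over 4 on any of the 18 arrays, nor did SVOP, SOX2, PROX1 and ELAVL4. SYP ranged from 2.81 to 3.89, NCAM1 from 2.78 to 3.42, SST from 2.52 to 3.05 and GRP from 2.21 to 3.60. SOX2, a stem cell factor, ranged from 3.21 to 3.76, PROX1 from 2.67 to 3.32, SVOP, a transporter-like vesicle protein, from 2.79 to 3.93, and the neuronal RNA-binding protein ELAVL4 from 2.20 to 3.50. No fold is given for these. A low value of a probe set limits what the array can show and does not establish absence of the transcript.

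INSM1, a zinc-finger factor of neuroendocrine differentiation, read over 4 on 1 array. It read 3.82, 4.56 and 3.98 with overexpression in 22Rv1, against 2.60, 2.65 and 2.31 in control, at least 1.09-fold higher when all genes were fitted with no filter (adjusted p = 1.34e-07). In LNCaP it read 3.04, 3.30 and 3.48 with overexpression, against 2.33, 2.06 and 2.31, all under the background level. GRP on the LNCaP overexpression arrays read 2.77, 3.60 and 3.47, against 2.38, 2.21 and 2.51, and SVOP 3.33, 3.83 and 3.82, against 2.80, 2.79 and 2.91, also under 4. The groups did not overlap in any of these comparisons. A second INSM1 probe set read under 4 on every array. It averaged 2.64 with overexpression and 2.58 in control in 22Rv1, and 2.93 and 2.68 in LNCaP.

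**Figure D4:**
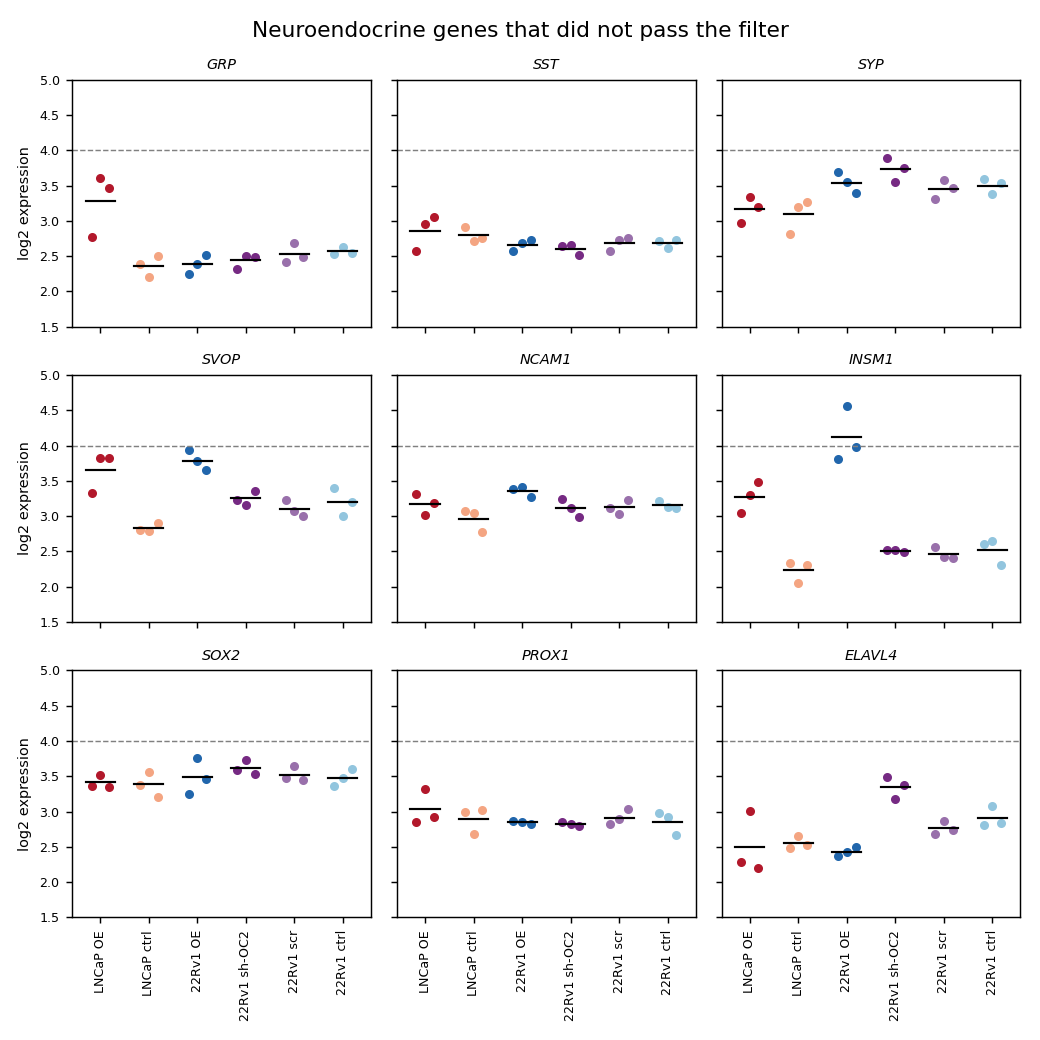
Log2 expression (vertical axis) of the 9 measured genes that did not pass the filter, on all 18 arrays, with points for arrays, bars for means of 3 arrays and a dashed line at 4. OE is ONECUT2 overexpression, ctrl control, sh-OC2 ONECUT2 shRNA and scr scramble shRNA. 1 point lies over the line, INSM1 at 4.56 in 22Rv1 overexpression.

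Further lists of related genes also held changes both ways. With overexpression, 60.8% of all tested genes were called in 22Rv1 (36.5% higher, 24.3% lower) and 62.2% in LNCaP (34.1% higher, 28% lower), and nothing particular to a list is read from the counts that follow. Of 32 tested genes of granule exocytosis, 15 rose and 7 fell with overexpression in 22Rv1, with a median of 0.27, and 14 rose and 6 fell in LNCaP, with a median of 0.21. SYNGR3, a vesicle membrane protein, rose by 1.63 ± 0.12 in 22Rv1 (adjusted p = 7.65e-09) and at least 11.7-fold in LNCaP (adjusted p = 1.55e-14), and CPLX1, which clamps SNARE complexes, rose 11.4-fold in LNCaP. Of 9 other tested peptide hormones, 4 rose and 3 fell in 22Rv1 and 3 rose and 2 fell in LNCaP. Neuromedin U (NMU) fell by 2.92 ± 0.19 in 22Rv1 (adjusted p = 2.14e-09) and by 5.98 ± 0.19 in LNCaP (adjusted p = 1.83e-13), where its arrays averaged 3.76 with overexpression and 9.74 in control. Glucagon (GCG) fell by 3.12 ± 0.26 in 22Rv1 (adjusted p = 3.49e-08). Of 15 other tested neuroendocrine transcription factors, 8 rose and 1 fell in 22Rv1 and 8 rose and 2 fell in LNCaP, with POU3F3 at least 3.41-fold higher in 22Rv1 and LHX2 3.37-fold higher in LNCaP.

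In LNCaP the REST complex had 2 rises and 6 falls among 13 genes, where 34.1% of all tested genes rose and 28% fell. REST averaged 10.0 with overexpression and in control (0.02 ± 0.17, adjusted p = 0.935), and RCOR1 rose by 0.84 ± 0.08 (adjusted p = 1.41e-07). Between ONECUT2 shRNA and scramble, where 13.4% of all tested genes were higher and 16.1% lower, 8 of 32 exocytosis genes were higher and 8 lower. Of 9 hormones 3 were higher and 3 lower, and of 15 transcription factors 6 were higher and 2 lower. GCG rose 5.90-fold there (adjusted p = 2.00e-06) and NTS, neurotensin, fell by 1.55 ± 0.16 (adjusted p = 3.08e-06). In LNCaP control against 22Rv1 control, where 30.2% of all tested genes were higher and 33.5% lower, 8 of the 9 hormones were lower and 0 higher, and of 32 exocytosis genes 11 were higher and 14 lower.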

How the data were processed

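The deposited values are on a log2 scale and come from GCRMA, a method that corrects background by probe sequence and quantile-normalizes, per the submitters' processing notes. No source used here gives its version or says if the 18 arrays formed 1 run. Of 54675 probe sets, 41097 had 1 symbol in the supplied platform annotation, 1801 had several and 11777 had none. Current symbols were found by gene identifier for 41043. Each of 19775 genes was read from its brightest such probe set. 12159 genes over 4 on at least 3 arrays entered limma 3.58.1 (R 4.3.3), with 6 group means, 18 arrays, 12 residual degrees of freedom, trend and robust moderation and Benjamini-Hochberg adjustment within each of 7 comparisons, called at 0.05. Every p without another name is from this fit, which was tested on simulated data. If no array of the lower group exceeded 4, a fold is a lower bound, the higher mean against 4. The number of arrays limits the precision. Replicate numbers did not pair the arrays (deviations of same-numbered arrays correlated at -0.217 to 0.425, with no comparison over 0.1 in all 3). All members, ONECUT2 and REST were named whatever their result, and up to 3 called genes per comparison from each further list. Members and lists were chosen with earlier results of these data known. Alternatives were other filters, scalings, probe set rules, moderation, array weights, a block, the arrays compared alone and leaving out each array. Further lists are exocytosis, processing enzymes, hormones, transcription factors, the REST complex and cell markers.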

Additional observations from a re-analysis of the deposited data

Results flagged for a closer look

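11 genes differed in their overexpression effect between LNCaP and 22Rv1 by the interaction term of the limma fit, given as the LNCaP effect minus the 22Rv1 effect on the log2 scale. PCSK1N (0.98) rose in both lines and more in LNCaP. So did ENO2 (3.74), with a size that rests partly on background, since its LNCaP controls read under 4. VGF (1.01) was called higher in LNCaP and lower in 22Rv1, each a call lost under several alternatives, and CPE (0.66) fell in 22Rv1. CELF3 (2.70), SRRM4 (2.45), SCG3 (1.46) and SCG5 (0.78) fell in 22Rv1, and NKX2-1 (-3.46) and SEZ6 (-1.95) rose there, while all LNCaP arrays of these 6 genes read under 4. All 6 passed the filter through 22Rv1 arrays alone, and nothing is read from their calls. UCHL1 (-0.57) was called in neither line alone, and its difference was lost under 12 alternatives.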

How the results depend on the processing

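Of 2074 values from alternatives for 133 results of single genes, 1939 kept their direction and call, or had no call in either fit, 69 lost the call and 65 gained it. A sign changed with no call in either fit in 39 of the first. 1 reversed: SRRM4 with scramble against control was 0.02 and became -0.24 (adjusted p = 0.0352) as the mean over its probe sets. The count of called genes for LNCaP overexpression, 5, was 8 with no filter (over 28 genes instead of 19, with INSM1, GRP and SVOP added at levels under 4), 3 with array weights, 3 in the arrays compared alone and 4 to 10 when 1 array was left out. That for ONECUT2 shRNA against scramble, 9, was 16 with array weights, 6 with a filter at 5 and 6 to 9 when 1 array was left out. That for ONECUT2 shRNA against 22Rv1 control, 1, was 9 with array weights, 6 in the arrays compared alone and 0 to 2 when 1 array was left out. With 1 array left out, the counts were 11 to 13 (14 in all arrays) for 22Rv1 overexpression, 10 to 13 (11) for the difference between lines, 15 (15) for the lines, and 4 to 6 (6) for scramble against control. With the replicate block the counts were 15 for 22Rv1 overexpression, 5 for LNCaP overexpression and 11 for ONECUT2 shRNA against scramble. The causes were not tested. Levels under a log2 value of 4 limit what can be said of LNCaP for most granule genes.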
